A study of Mus musculus with 32 samples.

Results

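Zinc finger protein genes carrying the symbols Zfp600 to Zfp999 were followed in 3T3-L1 adipocytes, mouse fibroblasts of an established line that had been differentiated into fat cells, during oxidative stress. Members were chosen by their symbol and by 1 measured value, a mean log2 level above 5 over the 8 untreated and control arrays. Of the 146 genes of the range that were measured, 93 met this rule, out of 21506 genes tested. Control levels chose the members, so they are given below as a description. The expression data came from 32 arrays in 16 groups of 2. Cells received 1 µM auranofin, an inhibitor of thioredoxin reductase, 100 µM BCNU, an inhibitor of glutathione reductase, or the 2 compounds together, each treatment lasting 2, 4, 8 or 24 h. The remaining groups were untreated cells of 0 h and controls of 4, 8 and 24 h. Both enzymes recycle thiols that detoxify peroxides, so co-treatment acts on the thioredoxin and the glutathione systems together. No control was labelled at 2 h, and the 2 h groups were set against the untreated cells at 0 h. This is an assumption, because the methods describe controls at each treatment time and no 0 h group. All groups shared the same line, medium and differentiation, and the findings are limited to that 1 line.

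C2H2 zinc finger proteins hold a zinc ion in each finger with cysteine and histidine side chains, and an array of fingers reads a run of DNA bases. Many of them carry a KRAB domain, which recruits the corepressor Trim28 and, through it, the histone methyltransferase Setdb1, and many silence transposable elements. The family expanded by tandem duplication, so its genes lie in clusters on a few mouse chromosomes. Many of their mRNAs are short-lived, which makes the group a natural place to ask whether its transcripts move as 1 block when cells are stressed.

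The 300 bases around the transcription start of 4 members are shown because the results below turn on these genes: Zfp948, Zfp655 and Zfp617 rose with both drugs and Zfp652 fell. Each window runs from 250 bases before to 50 bases after the first start listed by RefSeq for assembly GRCm38.p6. It is written 5′ to 3′ on the strand of the gene, which is the plus strand for all 4. Capitals mark matches to the ETS motif CCGGAAG, the YY1 motif ATGGCGG and the AP-1 motif TGANTCA on either strand.
Zfp948, chr17:21566728-21567027: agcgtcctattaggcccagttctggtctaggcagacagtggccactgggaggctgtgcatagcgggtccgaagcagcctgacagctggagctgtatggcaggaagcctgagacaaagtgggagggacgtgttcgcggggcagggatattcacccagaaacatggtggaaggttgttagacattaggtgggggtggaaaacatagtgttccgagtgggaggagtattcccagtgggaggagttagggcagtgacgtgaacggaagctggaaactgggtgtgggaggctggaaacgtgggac
Zfp655, chr5:145231492-145231791: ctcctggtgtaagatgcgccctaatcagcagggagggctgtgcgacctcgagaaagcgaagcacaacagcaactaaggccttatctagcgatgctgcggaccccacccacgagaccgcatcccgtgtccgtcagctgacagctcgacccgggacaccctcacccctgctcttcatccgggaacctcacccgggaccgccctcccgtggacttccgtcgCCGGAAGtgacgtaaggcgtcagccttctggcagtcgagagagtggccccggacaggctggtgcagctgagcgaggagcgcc
Zfp617, chr8:71922575-71922874: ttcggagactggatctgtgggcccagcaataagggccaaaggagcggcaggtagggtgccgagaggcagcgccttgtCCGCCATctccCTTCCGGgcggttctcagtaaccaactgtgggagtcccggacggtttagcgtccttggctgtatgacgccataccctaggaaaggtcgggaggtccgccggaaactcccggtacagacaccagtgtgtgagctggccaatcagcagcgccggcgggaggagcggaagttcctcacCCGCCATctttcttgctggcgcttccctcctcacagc
Zfp652, chr11:95748817-95749116: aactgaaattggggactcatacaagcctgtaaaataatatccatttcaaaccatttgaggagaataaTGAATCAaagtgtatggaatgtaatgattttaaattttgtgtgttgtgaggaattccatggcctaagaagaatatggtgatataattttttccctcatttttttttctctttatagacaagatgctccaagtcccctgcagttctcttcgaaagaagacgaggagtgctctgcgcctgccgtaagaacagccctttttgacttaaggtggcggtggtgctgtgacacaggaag
The Zfp948 window held none of the motifs searched. That of Zfp655 held 1 ETS match beginning at position -32 from the start. That of Zfp617 held 1 ETS match and 2 YY1 matches, all on the opposite strand, and that of Zfp652 held 1 AP-1 match beginning at position -183. A match is a run of letters and says nothing of whether a factor bound there.

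Control levels of the 93 members ran from 5.01 to 9.72 on the log2 scale, with a median of 6.4. The members with the highest values were Zfp638, a cofactor of C/EBP proteins in adipogenesis, at 9.72, Zfp706 at 9.41, Zfp960 at 9.10, Zfp654 at 8.31 and Zfp871 at 8.28. Array values are not given per length, so this order describes probe signal and not transcript abundance. Just inside the limit lay Zfp964 at 5.08 (4.78 to 5.40 over the 8 arrays), Zfp787 at 5.05 (4.45 to 5.56) and Zfp934 at 5.01 (4.41 to 5.28). Just outside lay Zfp873 at 4.94 (4.15 to 5.49), Zfp618 at 4.87 (4.63 to 5.15) and Zfp943 at 4.85 (4.43 to 5.14). The ranges of these 6 genes overlapped across the limit, and 15 of the 93 members had at least 1 control array at or below it. Each member was measured by 1 probe set.

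Replicate arrays of a group correlated across the members with r from 0.956 to 0.976, and across all genes with r from 0.9927 to 0.9954. All 10 adipocyte markers examined, among them Adipoq and Fabp4, lay at or above the 96.3 percentile of genes in control cells. Of the 10 preadipocyte and fibroblast markers, 9 also lay at or above the 93.2 percentile, and Thy1 lay at 78.9, so both marker lists were strongly expressed before treatment. Control cells at 4, 8 and 24 h gave 0 calls among the members against 0 h, where 0% of all genes were called, with 3, 6 and 1 members (3.23%, 6.45% and 1.08%) at an unadjusted p under 0.05, as were 4.71%, 4.26% and 4.44% of all genes. In bulk RNA, fewer cells that express a gene and less RNA per cell cannot be told apart.

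With both drugs some members rose and others fell, 62 of the 93 were never called, and the members did not shift as a body. Genes above level 5 were also called in both directions. A member counted as called when its adjusted p from limma was under 0.05 and its log2 change exceeded 0.5 in size. At 2 h, 3 members were called lower and 2 higher, against 0.86% and 0.632% of all genes and 1.84% and 0.922% of the genes above level 5. Leaving out 1 array gave 0 to 1 lower and cyclic loess gave 1, and none of the 3 falls held in every such fit. At 4 h, 6 were lower and 7 higher, against 3.31% and 2.53% of all genes and 6.87% and 3.06% of those above level 5. At 8 h the counts reached 13 lower and 13 higher, 14% of the members in each direction, against 5.58% and 5.72% of all genes and 11.6% and 6.73% of the genes above level 5. Centring of the arrays on their medians turned the 8 h split into 15 lower and 8 higher, and a fit on the arrays of that contrast alone called 3 and 5. At 24 h, 4 members were lower and 4 higher, against 4.25% and 4.88% of all genes and 8.2% and 6.06% of those above level 5. After centring, 14.3% and 5.25% of the genes above level 5 were called lower and higher at 8 h, beside 16.1% and 8.6% of the members. The genes above level 5 are not matched to the members, since their median control level was 7.5 against 6.4. The untreated and control arrays of these comparisons also chose the members by their mean level, so the counts describe the members and test nothing about them as a group.

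**Figure D1:**
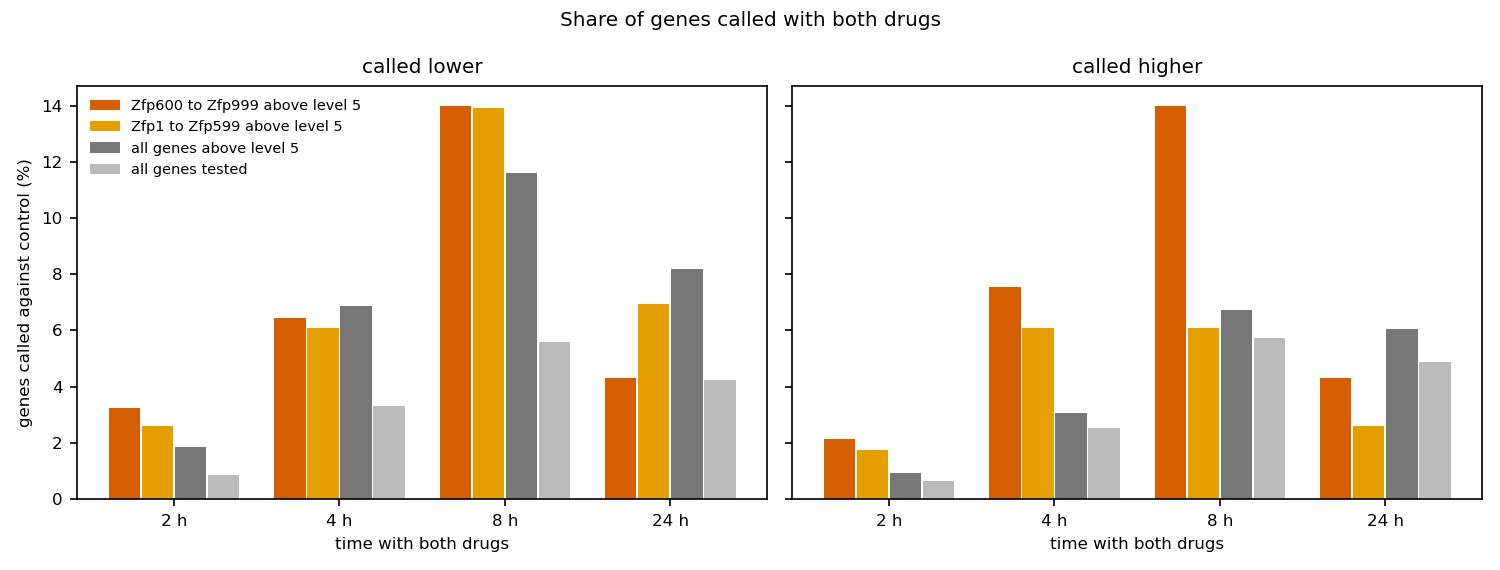
Percent of genes called lower and higher with both drugs against control at 2, 4, 8 and 24 h, for the 93 members, the 115 Zfp1 to Zfp599 genes above level 5, all genes above level 5 and all 21506 genes. The members' shares peak at 8 h, at 14% in each direction.

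The median log2 change of the members stayed near 0 throughout, at 0.02, 0.08, -0.02 and -0.08 at 2, 4, 8 and 24 h. The medians of all genes were 0.00, 0.03, 0.05 and 0.01. The spread was wider than that of other genes until 24 h. The interquartile range of the members' changes was 0.369 at 2 h, 0.502 at 4 h, 0.599 at 8 h and 0.343 at 24 h, and that of the genes above level 5 was 0.282, 0.381, 0.467 and 0.409. The SE of a change was also larger for the members, with a median of 0.174 against 0.124 for the genes above level 5. At 8 h, the lower quartile of the members' changes was -0.30 and the upper quartile 0.30.

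A total of 31 members were called with both drugs at 1 or more times, 15 of them lower and 16 higher, which is 33.3% of the members against 27% of the genes above level 5 and 17.8% of all genes. None of the 31 changed direction between times, and among the called genes above level 5 only 0.362% did. The other 62 were never called. Only Zfp948 and Zfp655 were higher at all 4 times, and 0 members were lower at all 4. Of the calls at 4 h, 6 fallers and 5 risers were called again at 8 h, 100% and 71.4% of them, where the genes above level 5 gave 78% and 81.6%. Of those at 8 h, 2 fallers and 2 risers were called again at 24 h, 15.4% each, where the genes above level 5 gave 35.7% and 45.2%. Calls at 8 h came from every level of expression but were most frequent above 7. There were 5 lower and 3 higher among the 39 members between 5 and 6, and 4 and 3 among the 30 between 6 and 7. Above 7 there were 4 and 7 among 24 members. Shares of all genes within these levels are not given here, so the counts only describe the members.

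**Figure D2:**
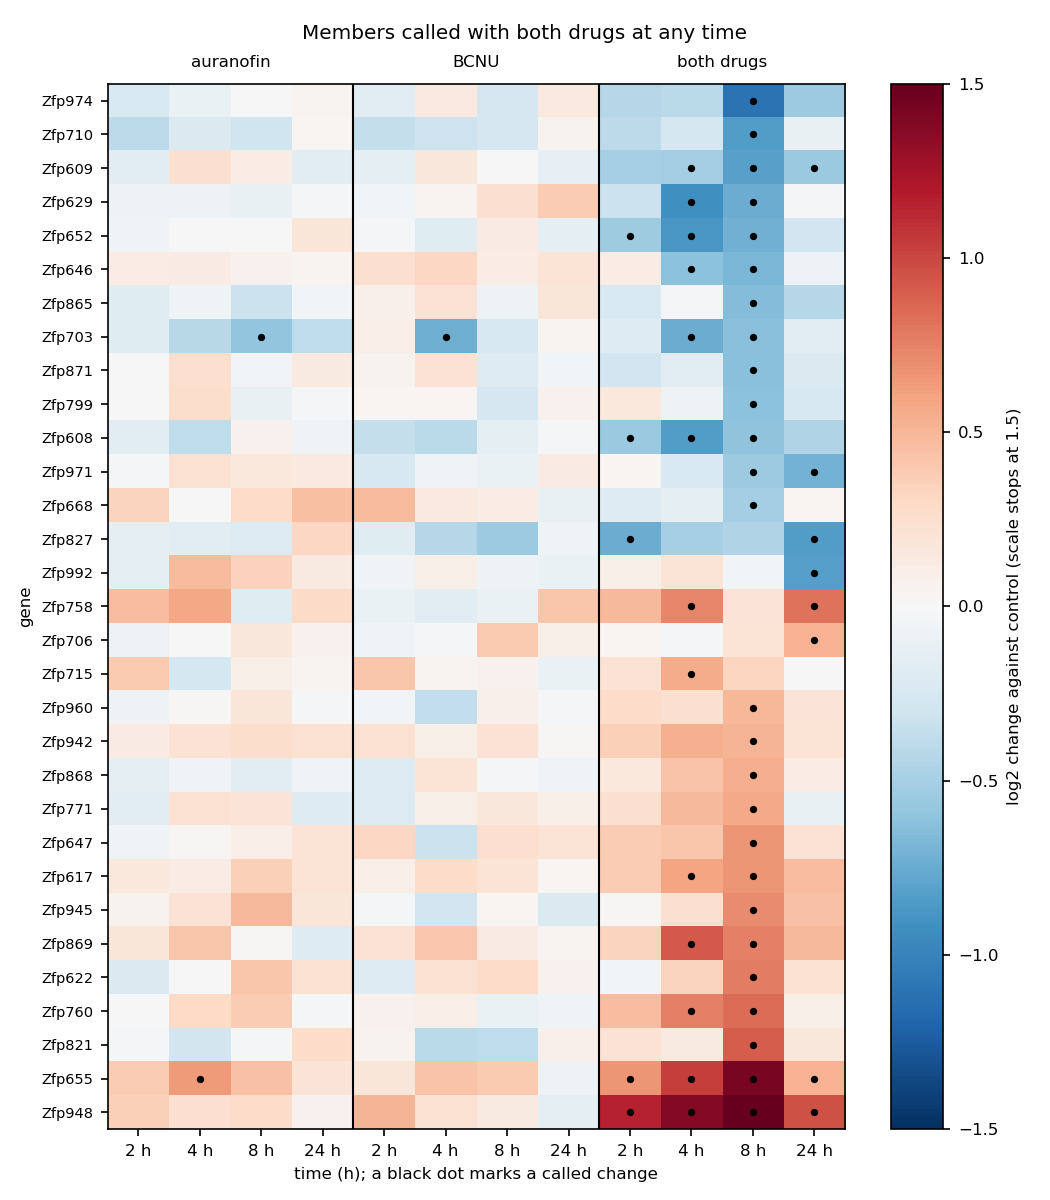
Log2 change against control for the 31 members called with both drugs at 1 or more times (rows), with auranofin, BCNU or both drugs at 2, 4, 8 and 24 h (columns); dots mark calls and the colour scale stops at 1.5 in either direction. Risers and fallers form separate blocks under both drugs, and the single-drug columns hold few dots.

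Zfp948 showed the largest change of any member. Its values were 7.21 and 7.14 in untreated cells, 7.33 and 7.46 in controls at 4 h, 7.26 and 7.10 at 8 h and 6.96 and 7.38 at 24 h. With both drugs they were 8.41 and 8.27 at 2 h, 8.77 and 8.76 at 4 h, 9.35 and 9.21 at 8 h and 8.21 and 8.03 at 24 h. All 8 co-treated arrays lay above all 8 untreated and control arrays, with the peak at 8 h. The log2 change was 1.16 ± 0.132 (SE, n = 2) at 2 h, 1.38 at 4 h, 2.1 at 8 h and 0.95 at 24 h, with adjusted p of 3.5e-05, 1.26e-06, 1.33e-09 and 3.46e-05 in limma. These are rises of 2.24-fold at 2 h and 4.29-fold at 8 h, and each call held with any 1 array left out.

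Zfp655, the mouse counterpart of human ZNF655, a partner of the signalling protein VAV1, followed the same course with a smaller size. Values in untreated and control cells lay between 7.87 and 8.13. With both drugs they were 8.64 and 8.71 at 2 h, 8.99 and 8.98 at 4 h, 9.23 and 9.42 at 8 h and 8.49 and 8.56 at 24 h, all above every control array. The log2 change was 0.66 ± 0.105 (SE, n = 2) at 2 h, 1.04 at 4 h, 1.42 at 8 h and 0.52 at 24 h, with adjusted p of 0.00147, 2.2e-06, 1.13e-08 and 0.00154. The calls at 2, 4 and 8 h held with any 1 array left out. At 24 h the change dropped below 0.5 without replicate 1 of the control (0.39) or without replicate 2 of the co-treated cells (0.49).

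Zfp760 and Zfp617 rose at 4 and 8 h. Zfp760 had values of 7.22 and 7.58 in the 4 h controls and 8.07 and 8.23 with both drugs, and of 7.40 and 7.58 in the 8 h controls and 8.26 and 8.40 with both drugs. The groups did not overlap, and the changes were 0.75 ± 0.142 (adjusted p 0.00162) at 4 h and 0.84 (adjusted p 0.000281) at 8 h. Zfp617 was at 7.49 and 7.56 in the 4 h controls and 8.21 and 8.03 with both drugs, and at 7.35 and 7.63 in the 8 h controls and 8.24 and 8.07 with both drugs. Its changes were 0.60 ± 0.106 (adjusted p 0.000895) and 0.67 (adjusted p 0.000142), again without overlap. All of these calls held with any 1 array left out.

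**Figure D3:**
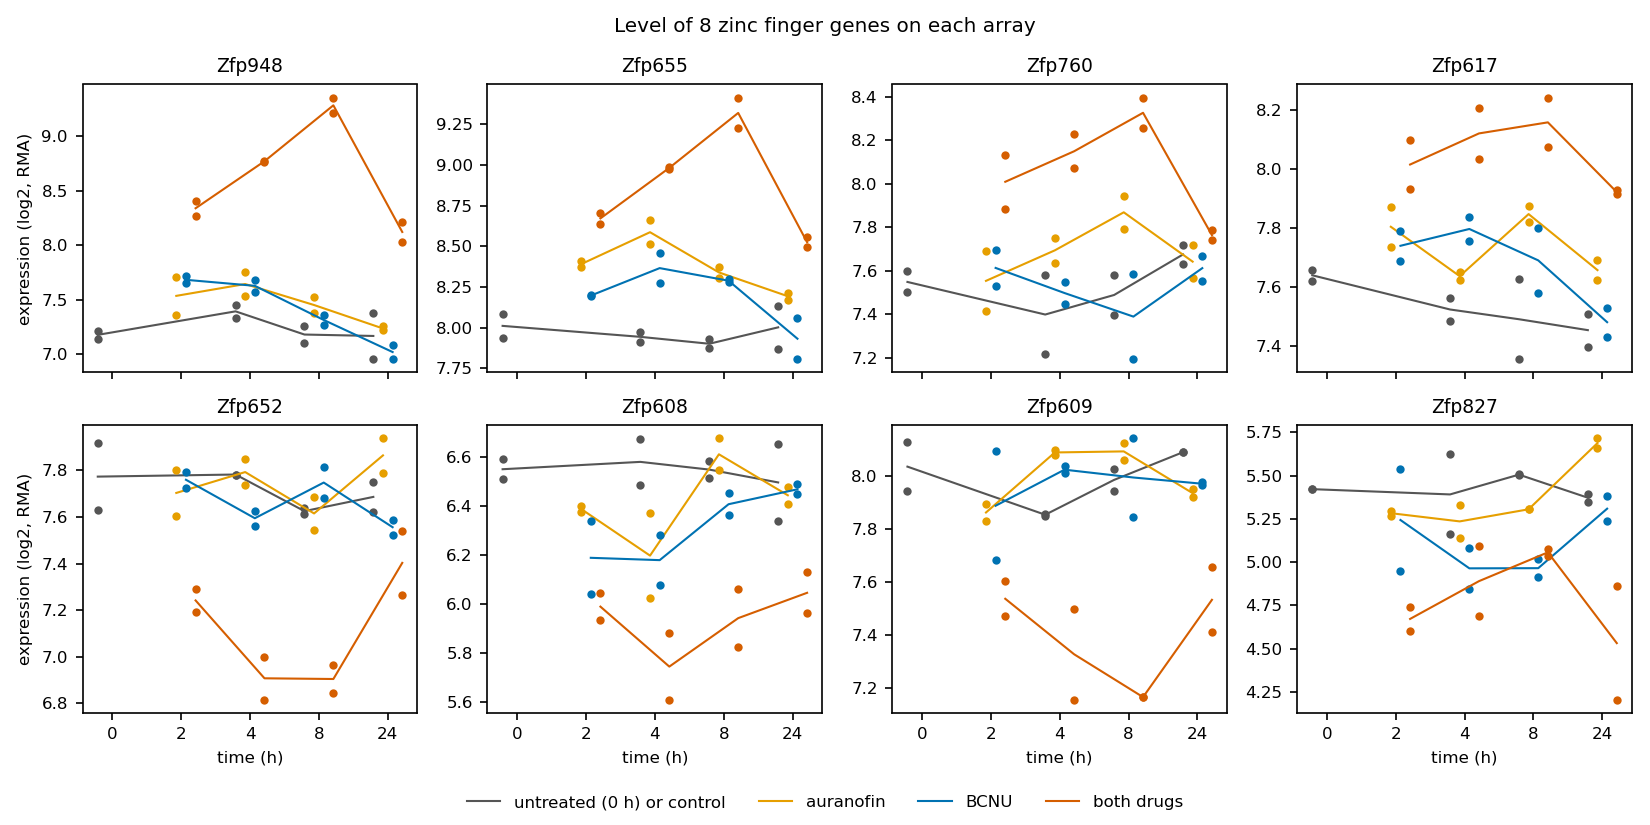
Log2 level on each array for Zfp948, Zfp655, Zfp760, Zfp617, Zfp652, Zfp608, Zfp609 and Zfp827 (panels) against time in hours, with points for arrays and lines for the mean of the 2 arrays of a group. Co-treated arrays of Zfp948 and Zfp655 lie above every control array at all 4 times, and those of Zfp652 lie below every control array at all 4 times.

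Zfp622, Zfp869 and Zfp821 also rose, Zfp869 from 4 h and the others at 8 h. Zfp622, which works in maturation of the large ribosomal subunit, had values of 6.35 and 6.29 in controls and 7.10 and 7.07 with both drugs, a change of 0.77 ± 0.096 (adjusted p 9.16e-06). Zfp869 was at 6.67 and 6.33 in the 4 h controls and 7.32 and 7.51 with both drugs, and at 6.64 and 6.68 in the 8 h controls and 7.46 and 7.39 with both drugs. Its changes were 0.92 ± 0.141 (adjusted p 0.000227) and 0.76 (adjusted p 0.000668). Zfp821 had 1 low control array at 8 h, with values of 5.44 and 4.85 in controls and 6.15 and 5.97 with both drugs, a change of 0.91 ± 0.18 (adjusted p 0.00121). The groups of these genes did not overlap, and the calls held with any 1 array left out, as did that of Zfp945 at 8 h (0.71, adjusted p 0.00121).

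The remaining risers at 8 h were weaker. Zfp960 (0.50), Zfp942 (0.50), Zfp868 (0.55), Zfp771 (0.57) and Zfp647 (0.66) had adjusted p between 0.00839 and 0.0466. All 5 lost the call when arrays were centred on their medians. Zfp647 and Zfp771 also lost it with any 1 of their 4 arrays left out, with adjusted p up to 0.297 and 0.127. Zfp868 lost it without either control or without co-treated replicate 2 (adjusted p up to 0.073), and Zfp942 without the same arrays (up to 0.287). Zfp960 lost it without control replicate 2 or co-treated replicate 2, with adjusted p up to 0.0954. At 4 h, Zfp715 (0.56 ± 0.127, adjusted p 0.00757) fell to 0.49 without control replicate 2, and Zfp758 (0.74 ± 0.212, adjusted p 0.0336) reached an adjusted p of 0.311 without control replicate 1 and 0.352 without co-treated replicate 1.

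Zfp652 fell at 2, 4 and 8 h. Human ZNF652 is a repressor that binds the corepressor CBFA2T3. Values of Zfp652 lay between 7.61 and 7.92 in untreated and control cells, and with both drugs they were 7.19 and 7.29 at 2 h, 6.82 and 7.0 at 4 h, 6.96 and 6.85 at 8 h and 7.27 and 7.54 at 24 h. All 8 co-treated arrays lay below all 8 control arrays, and the gap was smallest at 24 h. The log2 change was -0.53 ± 0.115 (SE, n = 2) at 2 h, -0.87 at 4 h, -0.72 at 8 h and -0.28 at 24 h, with adjusted p of 0.0159, 4.57e-05, 0.00015 and 0.121. The calls at 4 and 8 h held with any 1 array left out. The call at 2 h was lost without untreated replicate 2 (adjusted p 0.245), co-treated replicate 1 (0.123) or co-treated replicate 2 (0.0588).

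Zfp608 and Zfp609 are paralogues, known in mouse thymocytes as regulators of the recombination-activating genes, and Zfp609 also binds the cohesin loader Nipbl. Zfp608 had values from 6.34 to 6.68 in untreated and control cells and from 5.61 to 6.13 in the 8 co-treated arrays. These ranges did not overlap, and the changes were -0.56 ± 0.139 at 2 h, -0.84 at 4 h, -0.61 at 8 h and -0.45 at 24 h, with adjusted p of 0.038, 0.000486, 0.00424 and 0.0355, the last under the size limit. The 2 h call was lost with any 1 of its 4 arrays left out (adjusted p up to 0.2), and the 8 h call without co-treated replicate 1 (adjusted p 0.0675). Zfp609 was at 8.03 and 7.94 in the 8 h controls and at 7.16 and 7.17 with both drugs, without overlap. Its changes were -0.50 ± 0.13 (adjusted p 0.0505, not called) at 2 h, -0.53 (0.0131) at 4 h, -0.82 (0.00014) at 8 h and -0.56 (0.00554) at 24 h. The 8 h call held with any 1 array left out. The 4 h call was lost without either control or without co-treated replicate 1 (adjusted p up to 0.214), and the 24 h call without co-treated replicate 1 (0.102).

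Zfp703, a corepressor of the NET family that lacks an array of DNA-reading fingers, fell with both drugs at 4 and 8 h, and its single-drug calls are given further on. Its values at 4 h were 7.93 and 7.84 in controls, 7.46 and 7.48 with auranofin, 6.90 and 7.41 with BCNU and 7.25 and 7.03 with both drugs. Control arrays lay above all treated arrays, and the change with both drugs was -0.74 ± 0.152 (adjusted p 0.00316) at 4 h and -0.63 (adjusted p 0.00608) at 8 h. The 8 h call was lost without co-treated replicate 2 (adjusted p 0.0578).

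Zfp629 and Zfp646 fell together at 4 and 8 h. Zfp629 was at 5.17 and 5.49 in the 4 h controls and at 4.14 and 4.69 with both drugs, and at 8 h both co-treated arrays read 4.38. The changes were -0.92 ± 0.189 (adjusted p 0.00341) and -0.75 (adjusted p 0.0085). Zfp646 was at 6.63 and 6.67 in the 4 h controls and 5.91 and 6.15 with both drugs, and at 6.58 and 6.68 in the 8 h controls and 6.21 and 5.67 with both drugs. Its changes were -0.62 ± 0.174 (adjusted p 0.03) and -0.69 (adjusted p 0.0086). Groups did not overlap, yet 1 array decided each call. Zfp629 lost it at 4 h without control replicate 2 (0.0743) or co-treated replicate 1 (0.0946), and at 8 h without control replicate 1 (0.0515) or 2 (0.0506). Zfp646 lost it at 4 h without either control or co-treated replicate 1 (up to 0.232), and at 8 h without control replicate 2 (0.0735) or co-treated replicate 2 (0.169).

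The fall with the largest fitted size at 8 h was that of Zfp974, from 5.57 and 6.02 in controls to 4.90 and 4.47 with both drugs, a change of -1.11 ± 0.256 (adjusted p 0.00459). The groups did not overlap, but the spread was wide, and leaving out replicate 2 of the controls (adjusted p 0.0824) or of the co-treated cells (0.0672) ended the call. Zfp871 fell by 0.62 on the log2 scale (SE 0.124, adjusted p 0.00125), and its call held with any 1 array left out. The others were Zfp710 (-0.84), Zfp865 (-0.65), Zfp799 (-0.61), Zfp971 (-0.54) and Zfp668 (-0.51), whose human counterpart acts in DNA repair. Zfp799 lost its call with any 1 of 4 arrays left out (adjusted p up to 0.115). Zfp710 lost it without replicate 1 of either group (up to 0.198), as did Zfp971 (up to 0.129). Zfp865 lost it without control replicate 2 (0.314) or co-treated replicate 1 (0.243), and Zfp668 without either control or co-treated replicate 1 (up to 0.383). In all, 8 of the 13 rises and 3 of the 13 falls at 8 h held with any 1 array left out.

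At 24 h, the fallers were Zfp827, Zfp992, Zfp971 and Zfp609. Zfp827, whose human counterpart brings the NuRD complex to telomeres, was at 5.35 and 5.40 in controls and 4.86 and 4.20 with both drugs. Its changes were -0.75 ± 0.193 (adjusted p 0.0472) at 2 h, -0.50 (0.124) at 4 h, -0.45 (0.129) at 8 h and -0.84 (0.00496) at 24 h. The 2 h call was lost with any 1 of 4 arrays left out (adjusted p up to 0.224) and with the 4 h controls in place of the 0 h cells (0.0507), and the 24 h call without co-treated replicate 2 (0.133). Zfp992 was at 7.48 and 7.23 in controls and 6.34 and 6.71 with both drugs, a change of -0.83 ± 0.223 (adjusted p 0.0151) that was lost without replicate 1 of either group (up to 0.176). Zfp971 was at 6.56 and 6.79 in controls and 5.98 and 5.94 with both drugs. Its change of -0.71 ± 0.134 (adjusted p 0.000868) held with any 1 array left out.

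Among the risers at 24 h, Zfp706 stood apart because it had not moved earlier. Zfp706 represses Klf4 in mouse embryonic stem cells. Its values at 24 h were 9.40 and 9.41 in controls and 10.0 and 9.87 with both drugs, and its changes were 0.03, -0.03, 0.21 and 0.53 at 2, 4, 8 and 24 h. The last had an SE of 0.088 and an adjusted p of 0.000291, and it dropped to 0.46 without co-treated replicate 1. Zfp758 was at 6.67 and 6.52 in the 24 h controls and 7.32 and 7.51 with both drugs, a change of 0.82 ± 0.212 (adjusted p 0.0123). Its groups did not overlap, and its call was lost without replicate 2 of either group (adjusted p up to 0.102). Only the rise of Zfp948 and the fall of Zfp971 held at 24 h with any 1 array left out. Fibroblast markers also fell at that time: 10 of 10 were called lower, with a median of -2.1, and their mean level was 8.21 on both co-treated arrays against 10.36 to 10.42 in controls. At 2, 4 and 8 h, 1, 2 and 4 of the 10 were called lower. Of the 10 adipocyte markers, 0 were called lower at 2, 4 and 24 h and 1 at 8 h. Their part in the result was not tested.

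Several members with known roles were not called with both drugs at any time. Zfp638 read between 9.37 and 9.86 on all 32 arrays, with changes of 0.03, 0.08, -0.08 and -0.25 at 2, 4, 8 and 24 h. Zfp687, whose human counterpart partners the chromatin reader ZMYND8, had a change of -0.63 at 2 h that missed the threshold (adjusted p 0.0544). Zfp809, which silences retroviral DNA through Trim28, had a change of -0.28 at 8 h with an adjusted p of 0.0358, below the size limit. Zfp746, a repressor of the PGC-1α gene, ran from -0.07 to 0.16, and Zfp830, a splicing-associated protein, from 0.06 to 0.31. Zfp664 ran from -0.32 to -0.05. Zfp959 had a fitted change of 0.98 ± 0.37 at 8 h but an adjusted p of 0.0791.

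Single drugs moved few members. With auranofin, 0 members were called lower and 0 higher at 2 h, 0 and 1 at 4 h, 1 and 0 at 8 h, and 0 and 0 at 24 h. In all genes the shares lower and higher were 0% and 0.0697%, 0.0418% and 0.242%, 0.516% and 0.916%, and 0.358% and 0.921%. With BCNU, the members gave 0 and 0, 2 and 0, 1 and 0, and 0 and 0, against 0.0139% and 0.0325%, 0.4% and 0.391%, 1.38% and 0.879%, and 0.0697% and 0.121% of all genes. At an unadjusted p under 0.05 there were 6 members with auranofin and 8 with BCNU at 2 h (6.45% and 8.6%, against 5.37% and 5.79% of all genes), and 5 and 1 at 24 h (5.38% and 1.08%, against 10.6% and 7.77%). The few calls belonged to 3 members. Zfp655 rose by 0.64 ± 0.105 (adjusted p 0.00434) with auranofin at 4 h, where its arrays read 8.51 and 8.66 against 7.97 and 7.91 in controls. Leaving out replicate 2 of the controls (adjusted p 0.0772) or of auranofin (0.112) ended the call.

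Zfp703 had a change of -0.73 ± 0.152 (adjusted p 0.0222) with BCNU at 4 h and of -0.59 (adjusted p 0.0473) with auranofin at 8 h. The first call was lost without either control or BCNU replicate 1 (adjusted p up to 0.307), and the second with any 1 of 4 arrays left out (up to 0.337) and after centring. Zfp808 was lower with BCNU alone. It read 7.26 and 7.07 in the 4 h controls and 6.42 and 6.57 with BCNU, and 7.0 and 7.11 in the 8 h controls and 6.37 and 6.59 with BCNU. With both drugs at 8 h it read 7.06 and 7.07, within the control range. Its changes with BCNU were -0.67 ± 0.129 (adjusted p 0.0131) and -0.57 (adjusted p 0.0151). They were lost without control replicate 1 or BCNU replicate 1 at 4 h (up to 0.15), and without either control or BCNU replicate 1 at 8 h (up to 0.185).

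The contrast of both drugs with a single drug used none of the arrays that chose the members. Against auranofin, 4 members were lower and 4 higher at 4 h (all genes 3.19% and 2.11%), 11 and 7 at 8 h (4.97% and 5.5%), and 5 and 2 at 24 h (3.71% and 3.72%). Against BCNU the counts were 4 and 12 at 4 h (1.91% and 1.44%), 8 and 10 at 8 h (4.22% and 5.04%), and 3 and 3 at 24 h (3.91% and 4.38%). After centring they were 6 and 6 at 4 h (all genes 2.92% and 1.13%) and 14 and 6 at 8 h (6.91% and 3.33%). The balance against BCNU thus turned round at 8 h, in all genes as in the members. Of the genes above level 5, 14% and 3.69% were then called lower and higher at 8 h, beside 15.1% and 6.45% of the members. Without centring and with 1 array left out, the 4 h counts were 1 to 5 and 3 to 10. These contrasts share the co-treated arrays with those above. Zfp948 was higher than with auranofin by 1.13 at 4 h, 1.83 at 8 h and 0.88 at 24 h, and higher than with BCNU by 1.14, 1.97 and 1.10. Zfp655 at 8 h exceeded auranofin by 0.98 (adjusted p 2.43e-06) and BCNU by 1.03 (adjusted p 1.3e-06). Zfp821 exceeded BCNU at 8 h by 1.29 (adjusted p 5.04e-05) and auranofin by 0.93 (adjusted p 0.00122).

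Among the fallers, Zfp609 lay at -0.93 against auranofin at 8 h (adjusted p 5.35e-05) and at -0.76 at 4 h (0.000774). Zfp652 lay at -0.88 against auranofin at 4 h (5.21e-05) and at -0.84 against BCNU at 8 h (4.01e-05). At 24 h, Zfp827 lay at -1.16 against auranofin (adjusted p 0.000346) and at -0.78 against BCNU (0.00995), the latter call being lost without replicate 2 of BCNU (0.0892) or of the co-treated cells (0.211). Auranofin alone at 24 h had left Zfp827 at 5.72 and 5.66, above its 24 h controls. Zfp971 lay at -0.84 against BCNU at 24 h (adjusted p 0.000188). The calls given in these 2 paragraphs held with any 1 array left out, apart from that of Zfp827 against BCNU.

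Other members led these contrasts with calls that 1 array ended. Against BCNU at 4 h, Zfp629 (-0.96), Zfp646 (-0.93), Zfp956 (0.94) and Zfp758 (0.90) lost theirs without BCNU replicate 2 or co-treated replicate 1, and Zfp609 (-0.70) without the latter, with adjusted p up to 0.508. None of the 3 leading falls of that contrast held throughout. Against auranofin at 4 h, Zfp629 (-0.84) and Zfp747 (0.91) lost theirs without auranofin replicate 2 or co-treated replicate 1 (up to 0.168). At 8 h, Zfp974 was lost against auranofin (-1.10) without replicate 2 of either group (up to 0.116), and against BCNU (-0.86) without either BCNU array or co-treated replicate 2 (up to 0.224). Zfp668 (-0.79 against auranofin at 8 h) was lost without replicate 1 of either group (up to 0.0785). At 24 h, Zfp992 was lost against auranofin (-0.97) without replicate 1 of either group (up to 0.104), and against BCNU (-0.73) without either BCNU array or co-treated replicate 1 (up to 0.291). Zfp869 (0.68 against auranofin) was lost without auranofin replicate 1 (0.066), and Zfp655 (0.59 against BCNU) fell to 0.47 without BCNU replicate 2. By contrast Zfp715 against auranofin at 4 h (0.82), Zfp629 against BCNU at 8 h (-0.99), Zfp976 against auranofin at 24 h (-0.93) and Zfp945 against BCNU at 24 h (0.66) held throughout.

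Whether the effect of both drugs differed from the sum of the single effects, in either direction, was tested with an interaction term. The term was fitted on the log2 scale at each time. At 8 h it called 6 members lower and 7 higher, against 3.98% and 3.49% of all genes. A call need not mean a change with both drugs. Zfp963, called higher, had means of 7.64 with both drugs, 7.62 in controls, 7.27 with auranofin and 7.31 with BCNU. The term was 1.70 ± 0.187 (adjusted p 1.08e-05) for Zfp948, 1.31 ± 0.254 (0.00301) for Zfp821, -0.83 ± 0.163 (0.00304) for Zfp652 and -0.94 ± 0.184 (0.0032) for Zfp609. These 4 held with any 1 of their 8 arrays left out, and the other 9 did not. At 2 h, 0 members were called, against 0.0325% and 0.0232% of all genes, with 12 members at an unadjusted p under 0.05. No share of all genes is given at that unadjusted limit, so the 12 cannot be read as an excess. At 4 h, 3 were lower and 2 higher, against 1.04% and 0.53% of all genes. These were Zfp646 (-1.05, adjusted p 0.0341), Zfp609 (-0.93, 0.0114), Zfp652 (-0.70, 0.0332), Zfp715 (0.77, 0.0336) and Zfp948 (0.89, 0.0166). Each lost its call without auranofin replicate 2, BCNU replicate 2 or co-treated replicate 1, and all but Zfp609 also without at least 1 control array, with adjusted p up to 0.179. At 24 h, 2 were lower and 1 higher, against 2.01% and 1.75% of all genes. Zfp971 (-0.98, adjusted p 0.003) and Zfp948 (1.03, adjusted p 0.00169) held with any 1 array left out, and Zfp827 (-1.09, adjusted p 0.0255) was lost without either control, either auranofin array, BCNU replicate 2 or co-treated replicate 2 (up to 0.143). At 8 h, for Zfp655 the term was 0.60 ± 0.148 (adjusted p 0.0162). It was lost in 4 of the 8 fits, without replicate 1 of the control or of auranofin or replicate 2 of BCNU or of both drugs, with adjusted p up to 0.0777.

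The co-treated cells of 24 h were also set against those of 8 h. Between the co-treated cells of 8 and 24 h, 6 members were lower and 1 higher at 24 h, against 3.19% and 2.79% of all genes and 4.88% and 4.48% of the genes above level 5, with a median change of -0.11. Centring gave 6 and 5 (all genes 2.67% and 3.47%). Leaving out 1 array gave 3 to 7 and 1 to 3, and a fit on these arrays alone gave 0 and 0. The balance of the counts thus depends on the setting. In control cells over the same interval, 0 members were called, and no share of all genes is given for that interval. Against 0 h, the controls of 8 and 24 h had 0% of all genes called lower or higher. Between the co-treated cells, Zfp948 had a change of -1.16 ± 0.132 (adjusted p 6.77e-06) and Zfp655 of -0.80 ± 0.105 (adjusted p 4.32e-05), both with any 1 array left out as well. Zfp821 had a change of -0.74 (adjusted p 0.0117) and lost its call without co-treated 8 h replicate 1 or either 24 h array (up to 0.0995). Zfp629 went the other way, from 4.38 on both arrays at 8 h to 4.99 and 5.11 at 24 h, a change of 0.68 (adjusted p 0.0281) that was lost with any 1 of its 4 arrays left out (up to 0.164). Set against the controls of each time, the effect of both drugs was smaller at 24 h than at 8 h in 4 members, which had risen at 8 h, and 0 members were called the other way, while 1.34% and 1.37% of all genes were called lower and higher. Their fibroblast marker values at 24 h are those given above.

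**Figure D4:**
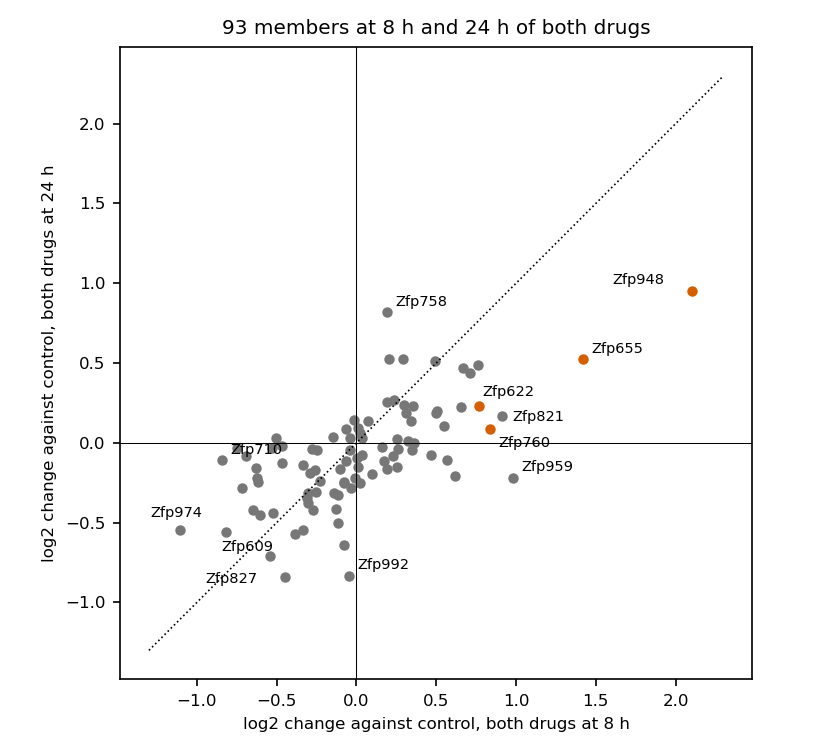
Log2 change with both drugs against control at 8 h (horizontal axis) and at 24 h (vertical axis) for each of the 93 members, with a dotted line of equality and orange points for Zfp948, Zfp655, Zfp622 and Zfp760, whose effects differed between the times by the test of the difference. These 4 points lie below the line.

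Pairs of members did not share a common course. Over the 16 group means, the median Pearson r of the 4278 pairs of members was 0.03, with 13.1% of pairs above 0.5 and 10.6% below -0.5. For the 6555 pairs of Zfp1 to Zfp599 genes above level 5 the median was 0.04, with 14.8% and 11%, and for all pairs of genes above level 5 it was 0.005, with 11.6% and 10.8%. The points share arrays and scaling, and the values are descriptions. The extreme pairs are given as values only, because they were picked from all pairs and the group means include the co-treated groups in which these genes were called. The pair with the highest r was Zfp655 and Zfp948 at 0.944, followed by Zfp617 and Zfp655 at 0.913 and Zfp617 and Zfp948 at 0.91, all risers. Among fallers, Zfp609 and Zfp652 reached 0.896 and Zfp629 and Zfp646 0.894. The most negative pair was Zfp609 and Zfp948 at -0.927.

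By chromosome, 20 members lay on chromosome 7, 15 on chromosome 17 and 12 on chromosome 8. At 8 h with both drugs, chromosome 7 held 6 members lower and 1 higher, with a median change of -0.19. Chromosome 17 held 2 lower and 5 higher, with a median of 0.19, and chromosome 8 held 1 lower and 4 higher, with a median of 0.14. The other genes above level 5 on these chromosomes were called lower in 10.6%, 10.8% and 10.1% and higher in 8.39%, 7.34% and 6.98%. The counts are small, and the difference between chromosomes was not tested.

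On chromosome 17, a run of members in gene order was Zfp677, Zfp948, Zfp983, Zfp760, Zfp942, Zfp994, Zfp944, Zfp758, Zfp946 and Zfp945. Their log2 changes at 8 h were 0.04, 2.1, -0.12, 0.84, 0.50, -0.13, 0.36, 0.19, 0.19 and 0.71. Zfp948 and its direct neighbour Zfp983 thus differed widely, and risers alternated with members near 0. On chromosome 8, the run Zfp930, Zfp868, Zfp964, Zfp869, Zfp963 and Zfp866 had changes of 0.26, 0.55, 0.25, 0.76, 0.02 and -0.47. In all, 29 members lay directly beside another member and 52 within 10 genes of one. Tandem copies can be near-identical and share probes, so the values of members in such runs are uncertain to that extent.

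**Figure D5:**
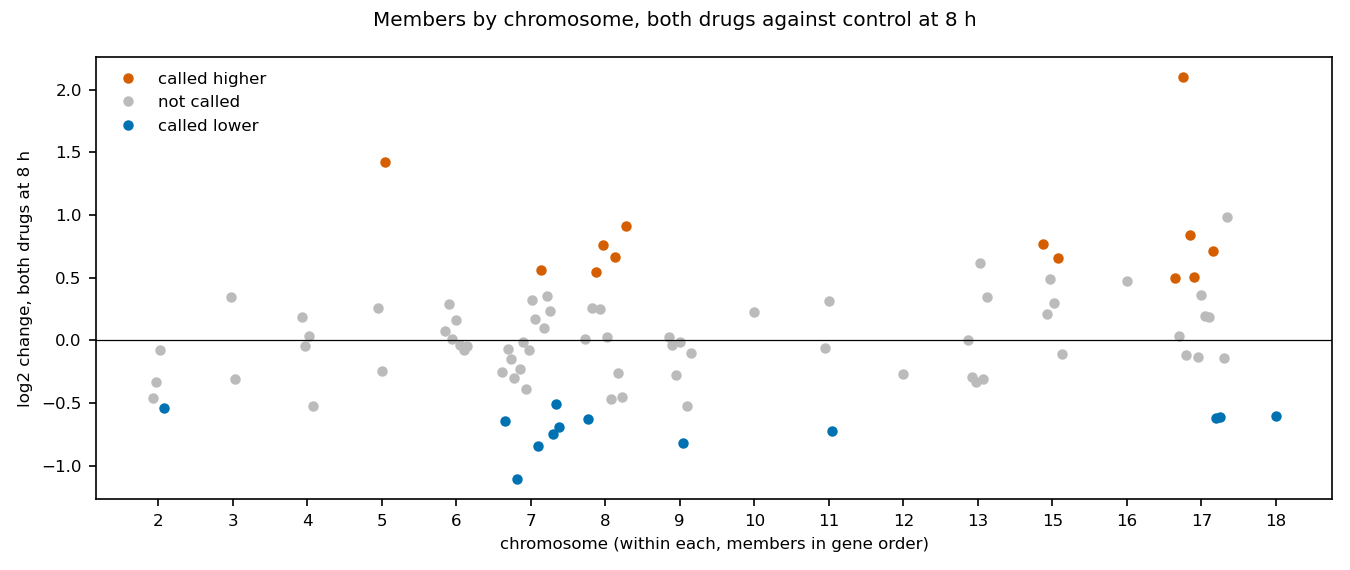
Log2 change with both drugs against control at 8 h (vertical axis) for each member, by chromosome (horizontal axis) and within it by gene order, with orange points for members called higher, blue for called lower and grey for the rest. Chromosome 7 holds 6 of the 13 fallers and chromosome 17 holds 5 of the 13 risers.

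Promoter windows of RefSeq were found for 78 of the 93 members. The ETS motif CCGGAAG was held by 19.2% of these members and by 9.93% of all 27025 genes of the table, and the YY1 motif ATGGCGG by 15.4% and 4.69%. The NRF1 motif GCATGCGC was held by 7.69% and 3.05%, the AP-1 motif TGANTCA by 7.69% and 8.97%, the cyclic AMP response element TGACGTCA by 1.28% and 2.03%, and the antioxidant response element TGACNNNGC by 20.5% and 14.0%. A gene counted as holding a motif when the window of any of its listed starts held it. The 78 members had 97 windows and the 27025 genes had 32851. Both strands were searched, and motifs could overlap one another. The median number of CG dinucleotides, counted in the window of the first listed start only, was 14.5 for the members and 7 for all genes. The genes of the table were not filtered by expression level or CG content, so they are not matched to the members. Of the 13 members with a window that were called higher with both drugs at any time, 30.8% held the antioxidant response element, as did 21.4% of the 56 not called and 0% of the 9 called lower. AP-1 matches were found in 22.2% of those 9. These shares rest on few genes and were not tested.

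A list of corepressor and general chromatin genes, among them Trim28 and Setdb1, was counted in the same comparisons of both drugs with control. Of 28 genes listed, 23 were measured. At 2 h, 0 were called, with 5 at an unadjusted p under 0.05, for which no share of all genes is given. At 4 h, 2 were lower and 0 higher, 8.7% and 0%, where 6.87% and 3.06% of the genes above level 5 were called. They were Chd3 (-0.63, adjusted p 0.00145) and Chd4 (-0.56, adjusted p 0.000177), helicases of the NuRD complex. The change of Chd4 dropped to -0.49 without control replicate 2 or co-treated replicate 1. At 8 h, 5 were lower and 0 higher, 21.7% and 0%, where 11.6% and 6.73% of the genes above level 5 were called. These were the DNA methyltransferase Dnmt1 (-0.62), Chd4 (-0.60), the heterochromatin protein gene Cbx5 (-0.59), Setdb1 (-0.51) and Chd3 (-0.51). Without co-treated replicate 2, Chd3 (-0.30, adjusted p 0.119) and Dnmt1 (-0.49) lost the call, and without control replicate 2 so did Setdb1 (-0.49). At 24 h, only Trim24 was called, with a rise of 0.56 (adjusted p 0.00143) that dropped to 0.50 without control replicate 1 and to 0.46 without co-treated replicate 1, both below the limit. Trim28, at a control level of 8.56, was not called at any of these times.

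The 115 Zfp1 to Zfp599 genes above level 5 were chosen by symbol and level alone. Of all genes above level 5, 1.84% and 0.922% were called lower and higher at 2 h, and 6.87% and 3.06% at 4 h. At 8 h these shares were 11.6% and 6.73%, and at 24 h 8.2% and 6.06%. The 115 genes gave 3 lower and 2 higher at 2 h, 7 and 7 at 4 h, 16 and 7 at 8 h, and 8 and 3 at 24 h. Their median changes were -0.05, -0.03, -0.07 and -0.09. The difference from the members was not tested. Of the 53 genes of the range at or below level 5, 3 were called with both drugs at 1 or more times, where 17.8% of all genes were. All genes are not matched to these 53 by level. Zfp618 had changes of -0.75 (adjusted p 0.0302) at 4 h, -0.85 (0.00843) at 8 h and -0.81 (0.013) at 24 h. Its calls were lost at 4 h without either control or co-treated replicate 1 (adjusted p up to 0.261), at 8 h without control replicate 1 or co-treated replicate 2 (up to 0.0941), and at 24 h without control replicate 2 or co-treated replicate 1 (up to 0.17). Zfp619 had a change of 1.08 ± 0.253 (adjusted p 0.00512) at 8 h, lost without control replicate 2 (0.0556). Zfp872 had a change of -0.76 (adjusted p 0.00878) at 4 h, at mean levels of 2.21 against 2.97, near the low end of the arrays, and lost its call without replicate 1 of either group (up to 0.115).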

How the data were processed

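Gene expression was measured on 32 Affymetrix Mouse Gene 2.1 ST arrays. The authors made the deposited log2 values with robust multi-array average (RMA) in oligo, which corrects background, quantile normalizes and summarises probe sets, and removed transcripts without an approved symbol. Sources used here do not give the RMA version or the genome build. There were 25293 probe sets, with values from 0.543 to 13.8 and array medians from 3.55 to 3.69. The 685 with several symbols and the 2578 with none were left out, and 465 genes with several probe sets were collapsed by their median, leaving 21506 genes. All 93 members were matched by Entrez identifier in a RefSeq table of GRCm38.p6, used for names and gene order.

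Groups came from the sample labels. limma 3.58.1 in R 4.3.3 fitted a mean for each of 16 groups, with 16 residual and 3.5 prior degrees of freedom. Calls needed a Benjamini-Hochberg adjusted p under 0.05 within a contrast and an absolute log2 change over 0.5. Every ± is the SE of a log2 change, and each group held 2 arrays, whose number limits the precision. Nothing in the labels places replicates in separate cultures, so each p-value reflects only the spread between these arrays, possibly technical. Tested on simulated data for both drugs against control at 8 h, with 21506 genes of which 200 were changed, the fit recovered 85 of 100 genes changed by 1 on the log2 scale and 95 of 100 changed by 2, with 5 false calls. The simulated noise was independent between genes. Most called changes of members at 8 h were smaller than 1, and the recovery of such changes was not tested.

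The members and lists were chosen with earlier results of these data known. Named members were the 6 per direction with the largest change among called, non-overlapping members for both drugs at each time, 3 per direction for other contrasts, members called the same way at all 4 times, those with a role known beyond DNA binding, and the 3 genes on either side of the level of 5. Zfp644, on that list, was not analysed here. Further called members, Zfp959, and the pairs and runs were added after their values were seen. Alternatives were other scaling (array medians, cyclic loess), a filter on low genes, another variance prior, the arrays of a contrast alone, a level of 6, other handling of probe sets, the 4 h controls for 2 h, a replicate block and leaving out each array.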

Additional observations from a re-analysis of the deposited data

Results flagged for a closer look

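The effect of both drugs against control differed between 8 and 24 h in 4 members by the test of the difference in limma, and in all 4 it was smaller at 24 h. The difference of the log2 changes, 24 h minus 8 h, was -1.148 for Zfp948 (SE 0.187, adjusted p 0.00113), from 2.1 to 0.95. For Zfp655 it was -0.897 (SE 0.148, adjusted p 0.00133), from 1.42 to 0.52. Both differences held with any 1 of their 8 arrays left out. For Zfp760 it was -0.75 (SE 0.201, adjusted p 0.0496), and the call was lost with any 1 of the 8 arrays left out, with adjusted p from 0.073 to 0.186. For Zfp622 it was -0.535 (SE 0.135, adjusted p 0.0348), and the call was lost without any 1 of the arrays other than replicate 1 of the 24 h control, with adjusted p up to 0.172. The 10 fibroblast markers had a median change of -2.1 at 24 h, and their part in these differences was not tested.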

How the results depend on the processing

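0 of the 133 called values changed direction. Some uncalled values did change sign. With the 4 h controls for 2 h, the change of Zfp622 with both drugs went from -0.039 to 0.095. Of 2029 alternative values for the 174 gene values examined, 1665 kept their side of the threshold, 360 lost the call and 4 gained it. Of 622 alternative counts, 490 stayed within the limits set.

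Fits on the arrays of a contrast alone gave few calls: with both drugs 0 lower and 0 higher at 2 h, 0 and 1 at 4 h, 3 and 5 at 8 h, and 0 and 1 at 24 h, and 0 with either drug alone. They gave 0 and 0, 1 and 3, and 2 and 1 against auranofin at 4, 8 and 24 h, 0 and 0, 1 and 3, and 1 and 1 against BCNU, 0 and 0 between 24 and 8 h, 0 and 1 for the interaction at 8 h and 0 at 4 and 24 h, and 0 for the effect difference. These fits have fewer residual degrees of freedom.

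Centring each array on its median moved the medians with both drugs to 0.048, -0.084 and -0.115 at 4, 8 and 24 h, and the numbers higher to 8 at 8 h and 2 at 24 h. Auranofin at 8 h then had 0 lower. Against BCNU there were 6 higher at 4 h, 14 lower and 6 higher at 8 h, and 5 lower at 24 h. The 24 against 8 h contrast had 5 higher, the interaction 5 lower and 1 higher at 4 h and 4 higher at 8 h, and the effect difference 2 lower. Cyclic loess gave 1 lower and a median of 0.049 with both drugs at 2 h, and 7 higher against auranofin at 4 h. The filter on low genes gave 7 lower with both drugs at 24 h and 8 lower against BCNU, where the other variance prior gave 5. For the interaction, the filter gave 7 lower and 6 higher at 4 h and 2 higher at 24 h, and the other prior 5 higher at 4 h. Over the 54 members above 6, the medians were 0.051 and 0.116 at 2 and 4 h, with 8 lower at 8 h, 2 lower against auranofin at 24 h, 4 lower against BCNU at 8 h and 0 higher at 24 against 8 h, and the interaction gave 1 higher at 4 h and 1 lower at 24 h. The 4 h controls gave a 2 h median of 0.035. The median pairwise r was 0.042 after centring, 0.034 with loess and with several-symbol probe sets kept, and 0.028 above level 6. The cause of these shifts was not tested.

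Leaving out 1 array, members with both drugs were 0 to 1 lower at 2 h, 3 to 7 at 4 h, 7 to 11 at 8 h and 2 to 5 at 24 h, and 8 to 12 higher at 8 h and 2 to 4 at 24 h. The medians ran from -0.005 to 0.051 at 2 h, 0.04 to 0.178 at 4 h and -0.102 to -0.05 at 24 h. Auranofin gave 0 to 1 higher at 4 h and 0 lower at 8 h, and BCNU 0 to 2 lower at 4 h and 0 to 1 either way at 8 h. Against auranofin there were 2 to 5 lower and 2 to 6 higher at 4 h, 6 to 11 lower at 8 h, and 3 to 8 lower and 1 to 3 higher at 24 h. Against BCNU there were 1 to 5 lower and 3 to 10 higher at 4 h, 5 to 8 lower at 8 h and 1 to 4 lower at 24 h. The 24 against 8 h contrast gave 3 to 7 lower and 1 to 3 higher, the interaction 0 to 4 lower and 0 to 3 higher at 4 h, 2 to 5 lower and 4 to 7 higher at 8 h, and 1 to 2 either way at 24 h, and the effect difference 2 to 3 lower.

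Over 120 pairs of groups, same-numbered arrays deviated together with r from -0.05 to 0.06. These low values show no pairing by number, but they cannot exclude that same-numbered arrays shared a culture. With the replicate block, both drugs gave 3 lower and 2 higher at 2 h, 6 and 8 at 4 h, 13 and 12 at 8 h, and 4 and 4 at 24 h, and the interaction at 4 h 5 lower. Of the calls named, loess ended those of Zfp827 and Zfp608 at 2 h and of Zfp668 and Zfp971 at 8 h, the other variance prior that of Zfp668, the block that of Zfp647 at 8 h, and centring those of Zfp655 and Zfp706 at 24 h.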
